A study of Lactuca sativa with 53 samples.

Results

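The genes described here are 100 lettuce genes that were raised by both drought and salt at 48 h. Their change under heat stayed inside a set limit. For every gene, D was the group mean of log2(value + 0.5) minus the same mean in the untreated controls, where the value is a read count per 1000000 reads of a scaled library size (scaled CPM). A gene was within the limits when D was at least 1 at 48 h of drought and at 48 h of salt and lay between -1 and 1 in all 3 heat groups. Of 23292 genes listed, 173 were within the limits, and 3 of these are AP2/ERF transcription factors, which were set apart. The other 170 were ranked by the lower of their D values under drought and salt, and the first 100 are the members. That lower D was 1.28, 1.27 and 1.27 at ranks 98 to 100, and it was 1.26 at each of ranks 101 to 103, just outside. The members were thus chosen by the values of the drought and salt libraries of 48 h, the heat libraries and the controls, so differences among those groups are description and carry no test.

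The study asked how lettuce genes, AP2/ERF transcription factors above all, respond to abiotic stress, using RNA-seq of aerial tissue (leaf, by the methods) from 18-day-old plants grown in soil at 20 °C. Drought plants had watering withheld, salt plants received 250 mM NaCl and heat plants were held at 34 °C, each for 5 h, 24 h or 48 h. These treatments and the controls, which were plants of 0 h, made 10 groups of the cultivar Salinas with 3 libraries each. A separate table held 23 libraries of the cultivars PI284702 and UC96US23, kept in the cold at 4 °C and sampled after 4 h, 24 h and 7 d, against warm-grown plants of 0 h, with 3 libraries per group but for 2 in PI284702 at 0 h. No untreated plants of later hours were analysed here, and by the methods the light was dimmer under treatment than during growth and dimmest in the cold. Treatment, hours since 0 h and light therefore cannot be told apart where a treated group is set against 0 h. By the methods the plants also had a daily cycle of light and dark. Between 5 h and 24 h of one treatment, longer treatment and time of day therefore cannot be told apart either.

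Drought and salt both make it hard for a root to take up water. Cells then lose turgor, the hormone abscisic acid accumulates, stomata close, and genes for protective proteins, solute synthesis and transport are switched on, as worked out mainly in Arabidopsis. Salt adds an ionic load of sodium and chloride that drought lacks, and chilling can also restrict water uptake. A part of the Arabidopsis dehydration genes responds to cold as well, through CBF/DREB1 factors. Low temperature itself induces these factors, and they bind a promoter element shared with dehydration signalling.

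None of the 23292 gene IDs was found in the annotation used here, which holds 51651 genes under other IDs. Protein functions and dehydration markers were therefore not looked up, the label water deficit could not be checked against marker genes, and members are given by rank and by the linkage group in their ID. Libraries held between 19144717 and 29521313 counted reads in Salinas and between 17570370 and 27896716 in the cold table, so 1 read was worth between 0.0300 and 0.0619 scaled CPM and between 0.0358 and 0.0569 CPM. In bulk tissue, a change in RNA per cell and a change in the share of cells that express a gene cannot be told apart.

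By their medians, the members stood above controls from 5 h on under salt, and under drought mainly at 48 h. Their median D under drought was 0.25 after 5 h, 0.36 after 24 h and 1.86 after 48 h. The same median under salt was 2.10, 2.47 and 2.94 at these times. These medians are on the deposited scale, on which library sums were higher at 24 h and 48 h of salt than at 5 h. Under heat, D of single members lay between -0.98 and 0.99, inside the limits set for it. These limits leave room for change in either direction. Rank 95 had 38.7 to 40.9 scaled CPM at 24 h of heat, against 17.8 to 21.6 scaled CPM in controls. Rank 33 had 0 to 0.254 scaled CPM at 48 h of heat, against 0.583 to 1.08 scaled CPM in controls. As levels, the median member stood at 1.28 scaled CPM in controls, 1.81, 2.13 and 10.7 scaled CPM at 5 h, 24 h and 48 h of drought, and 9.20, 17.2 and 22.3 scaled CPM at the same times of salt. Single members differed widely. Control means of the members ran from 0 to 141 scaled CPM, with 13 above the median of all genes tested (13.5 scaled CPM), and D at 5 h of salt ran from 0.02 to 5.21.

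D of 1 or more at 48 h was required of all 100 members, and 2.16% of the 23231 genes that passed a filter on low values reached it under drought and 21.1% under salt. At 5 h of drought 11 members reached it, beside 0.745% of all genes, and at 24 h of drought 5 members did, beside 0.336%. Under salt, 87 members reached it at 5 h (4.92% of all genes) and 97 at 24 h (15.4%). These 5 h and 24 h values share the control libraries with the choice of members, so they also carry no test. At all 3 times of salt, 86 members had D of 1 or more.

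**Figure D1:**
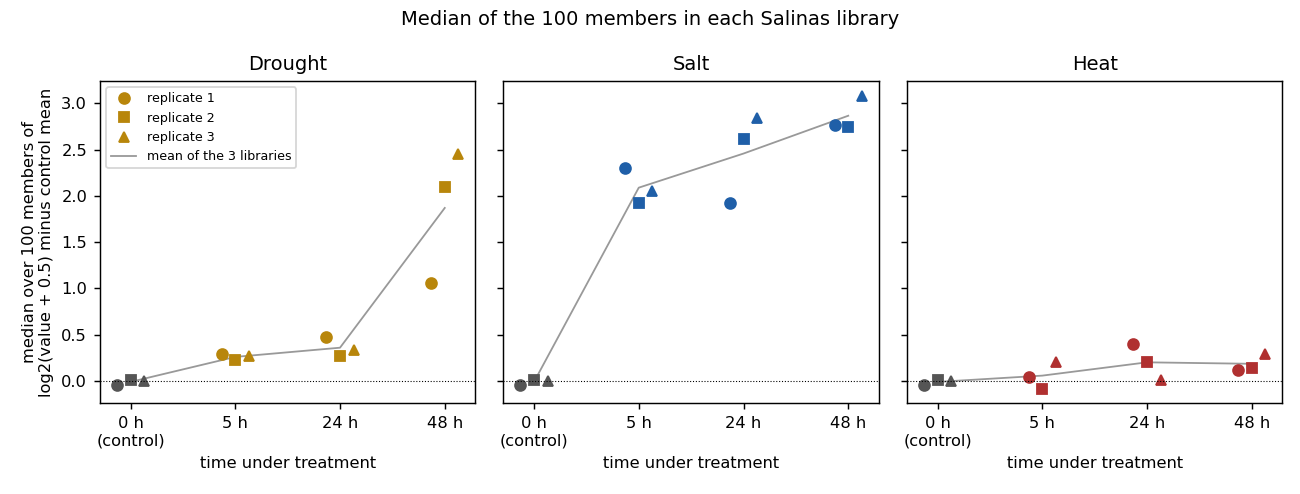
Median over the 100 members of log2(value + 0.5) minus the control mean (y axis) in each of the 30 Salinas libraries, by time under drought, salt or heat (x axis); symbols mark the 3 replicates and the line joins their means. Under drought at 48 h, replicate 1 lies at 1.06, below replicates 2 and 3 at 2.09 and 2.45, while all 9 salt libraries lie at 1.92 or above.

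One drought library stood apart within its group. At 48 h of drought, the members' median above controls was 1.06 in replicate 1, 2.09 in replicate 2 and 2.45 in replicate 3, and replicate 1 was the lowest of the 3 for 98 of 100 members. Their summed level was 1395, 3333 and 4127 scaled CPM in these libraries, against 568 to 625 scaled CPM in the controls. Without replicate 1 the median D at 48 h of drought was 2.33, all 100 members still had D of 1 or more, and 92 of them stayed among the first 100. Without replicate 3 the median was 1.51, 93 members had D of 1 or more and 84 stayed among the first 100, and without replicate 2 these values were 1.72, 100 and 90. At 24 h of drought, replicate 1 was the highest for 59 members, and at 24 h of salt replicate 1 was the lowest for 86 members, with a median of 1.92 against 2.62 and 2.84 in replicates 2 and 3.

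Salt exceeded drought for most members at 48 h, by an amount that moved with the scaling and with 1 library. D was larger under salt for 79 members, and D under salt minus D under drought ranged from -1.301 to 6.61, with a median of 1.02. The deposited values sum to between 1207464 and 1273638 in the salt libraries of 48 h and between 845052 and 885078 in the drought libraries. With each library scaled to 1000000 the median was 0.51, with 64 members larger under salt. Without replicate 1 of drought at 48 h it was 0.54, with 65 larger, and with any other library of the 2 groups left out it was 0.87 to 1.31, with 74 to 88 larger. As deposited, the difference was 2 or more for 22 members and between -0.5 and 0.5 for 23. Under salt, the highest of the 3 time points as deposited was 48 h for 69 members, 5 h for 21 and 24 h for 10. The salt libraries sum to 844311 to 871590 at 5 h and to 970032 to 1049578 at 24 h, below those of 48 h. The members made up 0.313 to 0.375% of the summed values at 5 h of salt and 0.363 to 0.505% at 48 h. These peak counts thus also depend on the scaling, which was not varied for them.

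**Figure D2:**
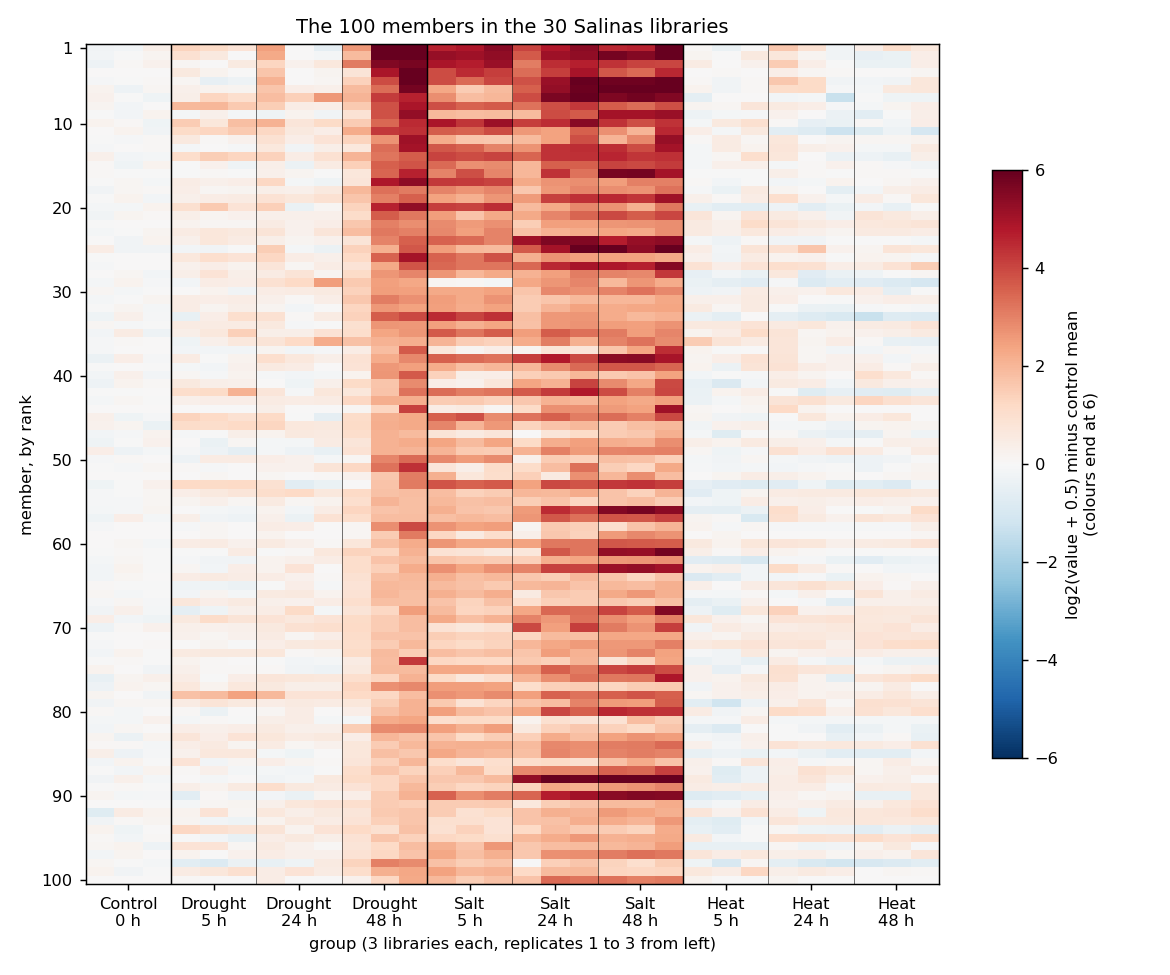
Each row is a member by rank (y axis) and each column is a Salinas library in its group (x axis, replicates 1 to 3 from left); colour is log2(value + 0.5) minus the control mean, red above and blue below, ending at 6. Most rows are red in the salt columns and in the drought columns of 48 h, of which replicate 1 is paler, and heat columns stay near white.

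The first-ranked member, Lsat_1_v5_gn_5_120740.1 on linkage group 5, had 12.6, 137 and 228 scaled CPM at 48 h of drought, against 1.39, 1.48 and 2.32 scaled CPM in controls. Under salt it was already at 52.5, 63.0 and 96.2 scaled CPM by 5 h, and it stood at 50.6, 53.0 and 194 scaled CPM at 48 h. At 24 h of drought its 3 libraries were far apart, at 11.5, 1.76 and 1.00 scaled CPM, with replicate 1 high and the others within the control range or just below it.

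The second-ranked member, Lsat_1_v5_gn_5_146120.2 on the same linkage group, behaved alike in the same libraries. It had 4.15, 92.9 and 162 scaled CPM at 48 h of drought and 66.5, 57.4 and 91.5 scaled CPM at 48 h of salt, against 0.627, 0.757 and 0.928 scaled CPM in controls. At 24 h of drought, replicate 1 again stood above the others, at 5.58 scaled CPM beside 0.799 and 0.658 scaled CPM. For both members, replicate 1 of drought at 24 h was thus close to replicate 1 at 48 h. Over all members these libraries differed, with medians above controls of 0.47 at 24 h and 1.06 at 48 h. The members' summed level was 906 scaled CPM in the first and 1395 scaled CPM in the second. On the log2 scale, 21 members at 24 h and 57 at 48 h stood 1 or more above controls in replicate 1. Whether these libraries carry the right labels was not tested.

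Some members were close to silent in controls. For 11 of the 100, every control library held 3 reads or fewer, so folds against the controls are lower bounds taken at 3 reads per library. The member of rank 4, on linkage group 1, had no read in any control and 0.349, 14.4 and 55.7 scaled CPM at 48 h of drought, at least 191-fold higher on the means. At 48 h of salt it had 6.19, 4.76 and 10.9 scaled CPM, at least 59.2-fold higher. The member of rank 16 reached at least 187-fold at 48 h of salt and at least 47.6-fold at 48 h of drought. These floors cover counting error only.

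The largest gap between salt and drought at 48 h belonged to the member of rank 88. It had 225, 300.1 and 253 scaled CPM at 48 h of salt and 1.81, 1.95 and 2.76 scaled CPM at 48 h of drought, against 0.403, 0.757 and 0.464 scaled CPM in controls. Its place in the list thus rested on a drought change near the limit and a salt change far beyond it.

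Salt and drought plants sampled at 5 h and at 24 h were not used in choosing the members. Their comparison at one time point holds the hours since 0 h constant. The choice did ask for a rise at 48 h of salt, and it set nothing for drought before 48 h. Genes so chosen may lie higher in salt at earlier times as well, so the shares of all genes are not a like base. All tests are limma fits across 23231 genes of Salinas, called at an adjusted p of at most 0.01 and a log2 difference of at least 1, unless another table is named. At 5 h, 75 members were higher in salt than in drought and 0 were lower, against 3.46% and 0.654% of all genes. At an unadjusted p under 0.05, 89 members were higher and 0 lower, against 20.8% and 20.7% of all genes, and edgeR called 76 higher and 0 lower. The members' log2 differences ranged from -0.20 to 4.72 with a median of 1.86, beside a median of -0.02 over all genes.

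At 24 h, 85 members were higher in salt than in drought and 0 were lower, while 14.9% of all genes were higher and 13.9% lower. The count of lower members was also 0 at an unadjusted p under 0.05, where 37% of all genes were lower, and with edgeR. A gene under 0.5 scaled CPM in every drought library of 24 h cannot be called lower by limma. That held for ranks 16 and 24, among others, so the shares of all genes called lower are not a like base. Every member had a higher mean under salt, by 0.20 to 5.91 on the log2 scale, with a median of 2.02. When each library was scaled to 1000000 instead, the median of all genes moved to -0.22 and the calls over all genes to 2873 higher and 4315 lower, in place of 3460 and 3229, and 77 members were called higher with a median of 1.83. Of the members called at 24 h and at 5 h, 66 were shared, 77.6% of those at 24 h and 88% of those at 5 h. Over all genes the shared calls were 20.1% of those at 24 h and 86.3% of those at 5 h. There, 804 genes were called higher at 5 h against 3460 at 24 h, so list size alone kept the share of the 24 h list low.

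The first-ranked members show how wide this gap was. Rank 1 had 35.4, 60.5 and 93.1 scaled CPM at 24 h of salt against 11.5, 1.76 and 1.00 at 24 h of drought, a log2 difference of 4.10 ± 0.75 (SE, n = 3 each, limma adjusted p = 3.14e-05). Rank 2 had 47.4, 42.0 and 50.2 scaled CPM at 5 h of salt against 1.90, 1.39 and 0.733 at 5 h of drought, a difference of 4.72 ± 0.78 (limma adjusted p = 7.78e-05). In both cases every salt library lay above every drought library.

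The 3 members with the largest differences at 24 h, of ranks 88, 24 and 25, were 5.91 ± 0.29, 5.16 ± 0.39 and 4.62 ± 0.56 higher on the log2 scale in salt than in drought (limma adjusted p = 1.40e-14, 1.93e-11 and 6.37e-08). Rank 88 had 40.6, 117 and 58.7 scaled CPM at 24 h of salt and 0.389, 0.440 and 1.06 scaled CPM at 24 h of drought. Rank 24, on linkage group 7, had 20.4, 30.1 and 28.9 scaled CPM at 24 h of salt and 0.283, 0.200 and 0.250 scaled CPM at 24 h of drought. Both sets of libraries were fully separate for these members.

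**Figure D3:**
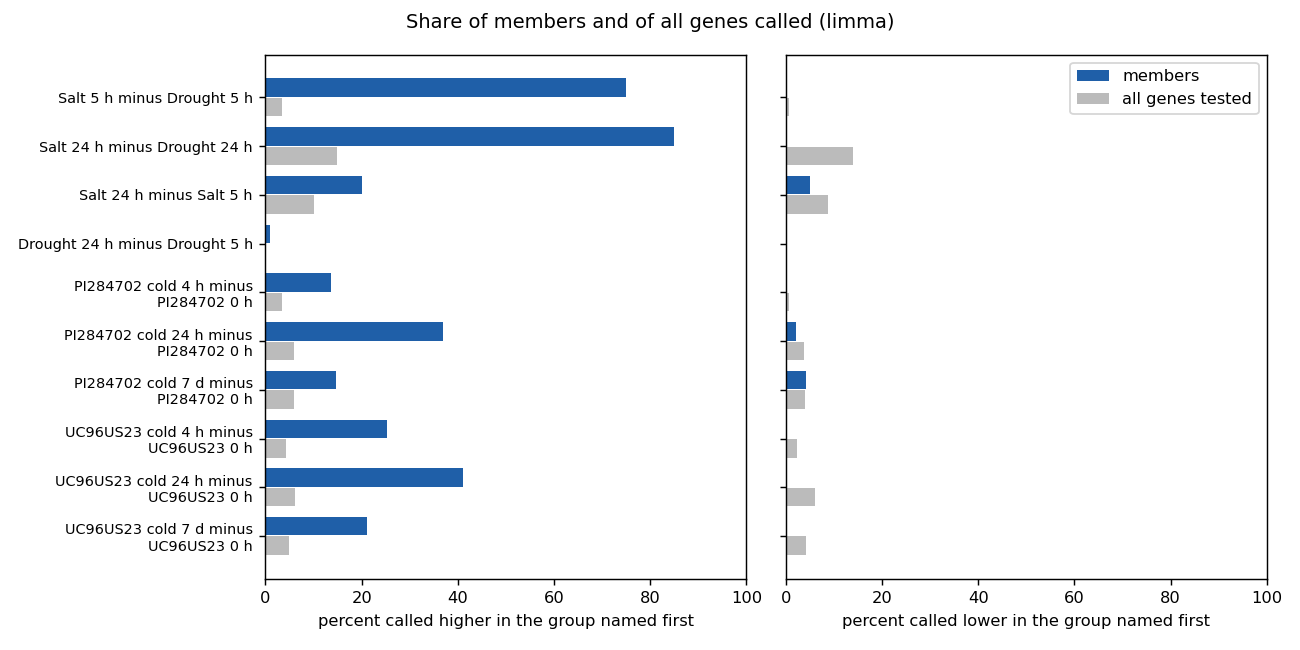
Percent called higher (left) or lower (right) in the group named first (x axes, 0 to 100%) for members (blue) and for all genes tested (grey), in each comparison (y axis) made on libraries that did not choose the members. The percent of members called higher lies above that of all genes in each of the 10 comparisons. It runs from 1 of 100 between the drought times to 85 of 100 between salt and drought at 24 h. Between the drought times it rests on 1 member, whose call was lost in 8 of 14 alternative settings. At an unadjusted limma p under 0.05, 7 members were higher there, against 9.98% of all genes. At the same p, 28 of 95 members were higher at 7 d in PI284702, against 35% of all genes. Members were chosen for a rise at 48 h of salt, so all genes are not a like base for salt against drought.

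Within salt, the members did not move as one between 5 h and 24 h. At 24 h, 20 members were higher than at 5 h (10% of all genes) and 5 were lower (8.7% of all genes), with a members' median of 0.37 and a range of -1.97 to 4.29 on the log2 scale. With each library scaled to 1000000 the counts were 13 higher and 10 lower, without replicate 3 of 24 h 13 were higher, and without replicate 1 of 24 h 2 were lower. The median was 0.15 with that scaling, 0.57 without replicate 1 of 24 h and 0.18 without replicate 2.

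Opposite courses can be seen in single members. Rank 88 was at 2.69, 2.65 and 3.31 scaled CPM at 5 h of salt and at 40.6, 117 and 58.7 scaled CPM at 24 h, a log2 difference of 4.29 ± 0.29 (24 h minus 5 h, limma adjusted p = 1.23e-11). Rank 33, on linkage group 5, was at 28.3, 20.9 and 26.4 scaled CPM at 5 h of salt and at 3.91, 7.37 and 7.51 scaled CPM at 24 h, a difference of -1.97 ± 0.43 (limma adjusted p = 3.46e-04). Rank 88 kept climbing to 48 h, and rank 33 stood at 5.47, 4.45 and 4.89 scaled CPM then.

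Between 5 h and 24 h of drought, 1 member was called. It was higher at 24 h (0.112% of all genes), and 0 members were lower (0.293%). At an unadjusted p under 0.05, 7 members were higher and 6 lower, against 9.98% and 12.6% of all genes, and edgeR called 1 higher and 0 lower. The member was rank 29, on linkage group 3, at 2.33, 2.92 and 7.98 scaled CPM at 24 h of drought against 0.850, 1.58 and 1.47 scaled CPM at 5 h, a log2 difference of 1.299 ± 0.298 (SE, limma adjusted p = 0.00845). Its call was lost in 8 of 14 alternative settings, among them leaving out replicate 2 or 3 of 24 h or any library of 5 h, and without replicate 3 of 24 h the difference was 0.82. Without replicate 1 of 24 h, 2 members were higher and 2 lower.

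D was 1 or more at 5 h of drought for 11 members and at 24 h for 5, with 2 in common, and these members took different courses. Rank 8, on linkage group 3, had 18.1, 18.6 and 13.9 scaled CPM at 5 h of drought, 12.9, 6.08 and 5.95 scaled CPM at 24 h and 13.9, 67.2 and 143 scaled CPM at 48 h, against 3.78 to 4.89 scaled CPM in controls. Rank 7, on linkage group 8, had 4.35, 8.65 and 7.10 scaled CPM at 5 h, 13.04, 9.63 and 22.3 scaled CPM at 24 h and 14.8, 67.7 and 90.9 scaled CPM at 48 h, against 2.70 to 4.03 scaled CPM in controls. Rank 8 thus stood above controls at 5 h, was lower at 24 h and had its highest mean at 48 h. Its replicate 1 at 48 h was no higher than its 5 h values. Rank 7 had a higher mean at each time.

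All 3 AP2/ERF genes within the limits belong to the DREB subfamily, whose members bind dehydration-responsive promoter elements in Arabidopsis. Of the 158 AP2/ERF genes listed in Salinas, 51 belong to this subfamily. LsERF046 and LsERF056 (also named LsCBF3) are in subgroup III, and LsERF005 is in subgroup I. Their lower D was 1.49 for LsERF046, 1.46 for LsERF005 and 1.44 for LsERF056. LsERF005 and LsERF046 lie on linkage group 6 and LsERF056 on linkage group 9.

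LsERF056 had its highest salt values first, at 8.55, 9.30 and 6.36 scaled CPM at 5 h, then 4.89, 3.16 and 4.24 scaled CPM at 24 h and 1.79, 1.73 and 1.09 scaled CPM at 48 h, against 0.0896, 0.468 and 0.211 scaled CPM in controls. At 5 h it was 2.89 ± 0.32 higher on the log2 scale in salt than in drought (limma adjusted p = 6.06e-07). LsERF046 had the opposite course, at 1.49, 1.31 and 1.22 scaled CPM at 5 h of salt and 3.02, 7.04 and 2.65 scaled CPM at 24 h. It was 1.25 ± 0.26 higher at 24 h than at 5 h (limma adjusted p = 1.52e-04). All 3 genes were called higher in salt than in drought at 5 h and at 24 h.

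Of 46 DREB genes tested, 9 were higher and 2 lower in salt than in drought at 5 h (3.46% and 0.654% of all genes), and 16 were higher and 6 lower at 24 h (14.9% and 13.9%), with median log2 differences of 0.27 and -0.10. The members' medians in the same comparisons were 1.86 and 2.02. The members were chosen for a rise at 48 h of salt and the DREB genes were not, so these medians are not a like comparison.

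The members were spread over the genome. Each of the 9 linkage groups held between 8 and 15 of them, and 2 had IDs with linkage group 0. Linkage group 7 had the most for its size, 13 of 2091 genes listed, and linkage group 2 the fewest, 8 of 2529. In the order of the listed IDs, 8 pairs of members lay within 5 genes of each other. Near-identical copies can share reads, and how such reads were counted is not given in the sources used here, so values of neighbours may not be independent.

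Neighbours did not always move alike. The members of ranks 23 and 31, next to each other on linkage group 8, ran in parallel, at 53.7, 135 and 124 scaled CPM for rank 23 and 23.9, 67.6 and 53.3 scaled CPM for rank 31 at 48 h of drought, against 13.4 to 16.4 and 6.90 to 8.56 scaled CPM in controls. On linkage group 7, the members of ranks 63, 35 and 28 were consecutive in the list. Rank 63 had 3.24, 2.35 and 3.21 scaled CPM at 5 h of salt and 19.1, 21.0 and 17.8 scaled CPM at 48 h, whereas rank 35 had 9.53, 6.65 and 9.07 scaled CPM at 5 h and 6.29, 3.84 and 5.46 scaled CPM at 48 h.

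In the cold table, 97 members were listed and 95 were tested among 23443 genes, each cultivar against its own 0 h plants. No library of this table was used to choose the members. A larger share of them than of all genes was called higher in the cold, most at 24 h. Higher than at 0 h were 13 of 95 members at 4 h (3.41% of all genes), 35 at 24 h (5.9%) and 14 at 7 d (6.01%) in PI284702. In UC96US23, 24 were higher at 4 h (4.3%), 39 at 24 h (6.23%) and 20 at 7 d (4.97%). At an unadjusted limma p under 0.05, 28 of the 95 were higher at 7 d in PI284702, against 35% of all genes. The excess at 7 d in PI284702 was thus not seen at that cut-off.

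Few members were called lower in the cold. A gene under 0.5 CPM in every 0 h library cannot be called lower, since log2(value + 0.5) cannot fall by 1 there. That held for ranks 9, 19 and 34 in UC96US23, among others. In Salinas controls the median member stood at 1.28 scaled CPM, against 13.5 scaled CPM over all genes tested. The shares of all genes called lower are therefore not a like base. In PI284702, 0 were lower at 4 h (0.704% of all genes), 2 at 24 h (3.83%) and 4 at 7 d (3.89%). In UC96US23, 0 were lower at 4 h (2.33%), at 24 h (5.95%) and at 7 d (4.11%) by limma, and edgeR called 0, 0 and 1. At an unadjusted p under 0.05, 6 were lower at 4 h in PI284702 (15% of all genes), where edgeR called 0, and 1, 0 and 2 were lower at 4 h, 24 h and 7 d in UC96US23 (24.7%, 28.3% and 19.4% of all genes). The members' median log2 differences were 0.13, 0.55 and 0.18 at 4 h, 24 h and 7 d in PI284702 and 0.51, 0.85 and 0.47 in UC96US23. The median at 4 h in PI284702 was 0.26 and 0.05 without replicates 1 and 2 of its 0 h. In UC96US23, leaving out 1 library gave 0.32 to 0.82 at 4 h and 0.30 to 0.71 at 7 d, both ends at 7 d coming from libraries of 0 h (replicates 1 and 2). Over all genes the median was up to 0.15, at 7 d in PI284702, where 9 members were higher and 6 lower, with a median of -0.034, after libraries were centred on their medians. Without replicate 2 of PI284702 at 0 h, 21 members were higher at 24 h and 8 at 7 d, with a median of -0.046 at 7 d. Without replicate 1 of PI284702 at 0 h, 0 members were lower at 24 h.

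At 24 h, 30 members were called higher in both cultivars, 76.9% of the 39 in UC96US23 and 85.7% of the 35 in PI284702. Over all genes the calls shared at 24 h were 69% of those in UC96US23 and 72.8% of those in PI284702. At 1 or more times, 54 members were higher in either cultivar and 37 in both, beside 14.1% and 7.14% of all genes, and 41 of the 95 were higher in none of the 6 comparisons. Ranks 1 to 50 held 20 and 23 of the members higher at 24 h in PI284702 and UC96US23 (of 47 tested), and ranks 51 to 100 held 15 and 16 (of 48).

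The cold calls were also counted by the time of the salt peak. Of the 21 members whose salt mean was highest at 5 h, 11 were higher at 24 h of cold in PI284702 and 15 in UC96US23. Of the 64 tested members with the highest salt mean at 48 h, 23 were higher in PI284702 and 21 in UC96US23, and of the 10 with the highest at 24 h the counts were 1 and 3. The salt peak was taken on the deposited scale only, and these shares were not tested against each other.

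**Figure D4:**
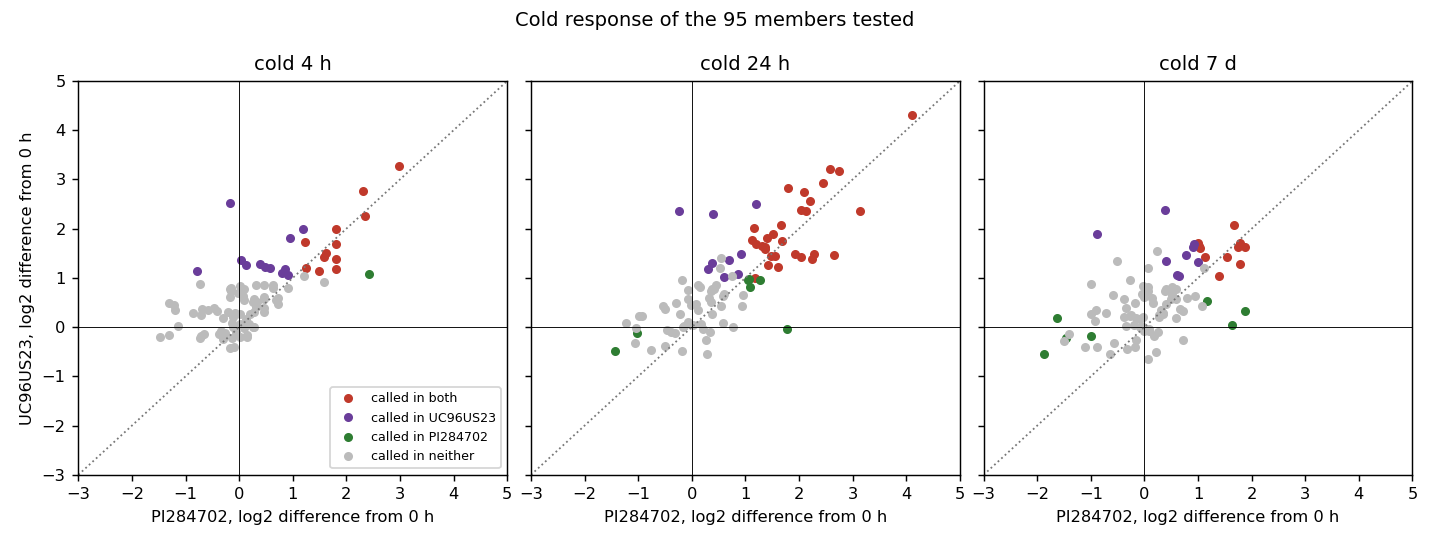
Log2 difference from 0 h in UC96US23 (y axis) against PI284702 (x axis) for the 95 members tested, at 4 h, 24 h and 7 d of cold; colours mark members called in both cultivars, in one or in neither, and the dotted line marks equal values. At 24 h, 30 members called higher in both lie to the upper right, led by rank 2 at 4.11 in PI284702 and 4.31 in UC96US23.

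Rank 2 (Lsat_1_v5_gn_5_146120.2) had the largest cold response of the members at 24 h. In PI284702 it had 126, 170.4 and 138 CPM at 24 h of cold against 10.7 and 5.72 CPM at 0 h, a log2 difference of 4.11 ± 0.49 (limma adjusted p = 8.30e-07). In UC96US23 it had 112, 93.3 and 87.2 CPM at 24 h against 1.81, 10.8 and 4.03 CPM at 0 h, a difference of 4.31 ± 0.44 (limma adjusted p = 5.11e-08). At 4 h it was still at 9.15 to 13.03 CPM in PI284702 and 2.89 to 11.6 CPM in UC96US23, close to 0 h, and at 7 d it was at 13.04 to 21.5 CPM in PI284702 and 8.33 to 17.3 CPM in UC96US23.

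Rank 67, on linkage group 7, followed the same course and kept a part of the rise. It had 33.9, 36.8 and 37.4 CPM at 24 h of cold in PI284702 against 4.10 and 3.21 CPM at 0 h (log2 difference 3.14 ± 0.20, limma adjusted p = 5.23e-11). At 7 d it was at 14.7, 14.4 and 11.9 CPM in PI284702 and at 18.1, 16.7 and 21.1 CPM in UC96US23, where 0 h plants had 3.91, 7.25 and 5.33 CPM. It was called higher at 7 d in both cultivars, by 1.77 ± 0.20 in PI284702 and 1.70 ± 0.18 in UC96US23 (limma adjusted p = 3.71e-07 and 1.09e-07).

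Rank 15, on linkage group 5, peaked early. At 4 h of cold it had 7.89, 8.13 and 17.4 CPM in PI284702 against 1.01 and 0.766 CPM at 0 h, and 22.5, 21.2 and 20.4 CPM in UC96US23 against 1.51, 2.09 and 1.78 CPM at 0 h. The log2 differences were 2.98 ± 0.34 and 3.26 ± 0.30 (limma adjusted p = 1.05e-06 in PI284702 and 3.51e-08 in UC96US23). At 7 d UC96US23 was still at 10.9, 11.9 and 11.2 CPM, the largest rise of a member at that time in UC96US23 at 2.38 ± 0.30, while PI284702 had 2.10, 1.95 and 0.430 CPM.

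The largest rises at 7 d in PI284702 were 1.87, 1.87, 1.78 and 1.77 on the log2 scale, for the members of ranks 19, 72, 70 and 67. In UC96US23 they were 2.38, 2.07, 1.88 and 1.70, for ranks 15, 28, 35 and 67. Ranks 18, 28 and 66 were called higher at all 3 times in both cultivars, and the share of all genes that were is not given here. Rank 28 had 9.99, 7.92 and 9.05 CPM at 4 h of cold in PI284702 against 2.28 and 0.802 CPM at 0 h, and at 7 d it was still at 5.85, 5.03 and 5.83 CPM.

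**Figure D5:**
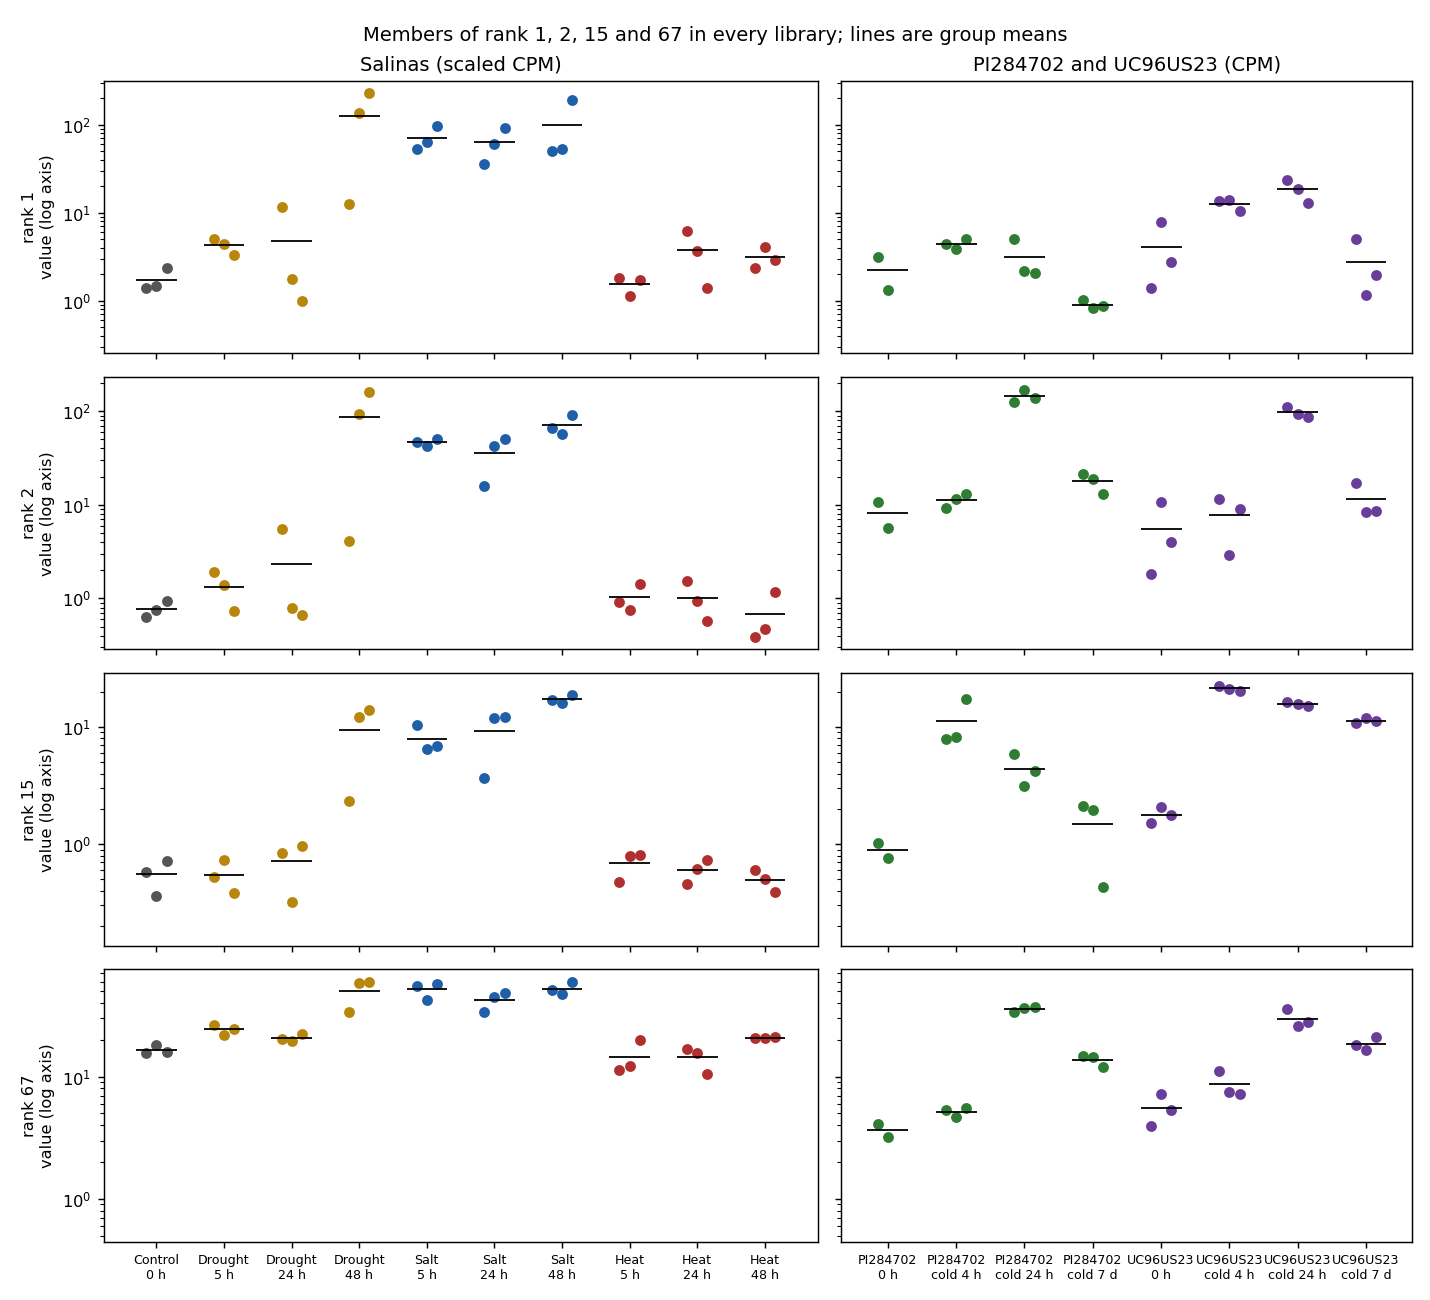
Values (y axes, log scale) of the members of rank 1, 2, 15 and 67 in every library of the Salinas table (left, scaled CPM) and of the cold table (right, CPM) by group (x axes); points are libraries and lines are group means. Rank 2 reaches 87.2 to 170.4 CPM at 24 h of cold in both cultivars, and rank 15 has its highest cold means at 4 h.

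The 4 members lowered at 7 d in PI284702 were ranks 7, 91, 29 and 80, by 1.00 to 1.87 on the log2 scale. Rank 7 (Lsat_1_v5_gn_8_43360.2) had 0.146, 0 and 0.191 CPM at 7 d against 3.65 and 0.693 CPM at 0 h, a log2 difference of -1.87 ± 0.46 (limma adjusted p = 0.00194). The 2 libraries of 0 h were far apart, and without replicate 1 of 0 h the difference was -0.98 (limma adjusted p = 0.136). Rank 80 lost its call in 5 of 12 alternative settings, at -0.82 without replicate 2 of 0 h and -0.81 without replicate 3 of 7 d among them. Rank 91 (Lsat_1_v5_gn_0_27001.1) had 1.46, 1.13 and 0.717 CPM at 7 d against 4.71 and 4.08 CPM at 0 h, a difference of -1.64 ± 0.28 (limma adjusted p = 6.08e-05), and its call held in all 12 alternative settings.

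A difference in cold response between the cultivars was called for few members. It was tested as an interaction, UC96US23 minus PI284702, and in either direction 0 members were called at 4 h (0.137% of all genes), 2 at 24 h (0.661%) and 4 at 7 d (0.674%). At 4 h, an unadjusted p under 0.05 gave 9 positive and 1 negative, against 6.82% and 9.64% of all genes, and edgeR called 0. The medians of the members were 0.25, 0.30 and 0.32 on the log2 scale, beside -0.03, -0.05 and -0.04 over all genes. Leaving out 1 library gave medians of 0.10 to 0.47 at 4 h, 0.09 to 0.52 at 24 h and 0.10 to 0.59 at 7 d, so their size depended on single libraries. Of the 0 h libraries, replicate 2 of UC96US23 was the highest for 74 of 97 members and replicate 1 of PI284702 for 75.

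Rank 35, one of the 3 neighbours on linkage group 7, was raised by cold in UC96US23. It had 5.86, 6.30 and 4.52 CPM at 24 h of cold in UC96US23 against 0.301, 1.19 and 0.672 CPM at 0 h, and 1.18, 0.744 and 0.550 CPM at 24 h in PI284702 against 1.62 and 0.620 CPM at 0 h. The interaction was 2.61 at 24 h and 2.78 ± 0.49 at 7 d (limma adjusted p = 0.00269 at 7 d). Its call was lost in 9 of 18 alternative settings at 24 h, most of them with 1 library left out, and in 4 of 18 at 7 d. Without replicate 1 of PI284702 at 0 h it was 2.15 at 24 h and 2.32 at 7 d, past the threshold at neither.

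For ranks 19 and 34, UC96US23 was near 0 throughout. For rank 34, all 12 UC96US23 libraries held 0 reads apart from a single one with 1 read, whereas PI284702 had 13.4, 11.5 and 10.6 CPM at 7 d of cold against 3.24 and 3.68 CPM at 0 h. Rank 19 was between 0 and 0.179 CPM in UC96US23, and in PI284702 it had 4.58, 5.03 and 6.21 CPM at 7 d against 1.11 and 1.02 CPM at 0 h. The interaction at 7 d was -1.55 for rank 19 and -1.60 for rank 34 by limma and turned to 0.54 and 0.13 by edgeR, which called neither. Rank 9 held 0 reads in every UC96US23 library, and was between 0.0496 and 0.976 CPM in PI284702. In warm-grown plants, 5 members differed between UC96US23 and PI284702 (9.9% of all genes in either direction), with 3 higher and 2 lower in UC96US23, the lower ones being ranks 19 and 34.

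Each of the 3 AP2/ERF genes within the limits was called higher at 4 h of cold in at least 1 cultivar. At 4 h, LsERF005 had 7.85, 5.91 and 6.49 CPM in PI284702 against 1.37 and 2.08 CPM at 0 h, and 4.24, 3.32 and 5.03 CPM in UC96US23 against 0.702, 1.33 and 0.528 CPM at 0 h. Its log2 differences were 1.72 ± 0.28 in PI284702 and 1.82 ± 0.25 in UC96US23 (limma adjusted p = 1.28e-04 and 9.72e-06). LsERF046 was called at 4 h in both cultivars as well, and LsERF056 in UC96US23, at 1.51 ± 0.36, whereas in PI284702 it gave 0.94 ± 0.40 (limma adjusted p = 0.110). Of 43 DREB genes tested, 16 were higher and 0 lower at 4 h in PI284702 (3.41% and 0.704% of all genes) and 19 were higher and 2 lower in UC96US23 (4.3% and 2.33%). At 24 h, 12 were higher and 0 lower in PI284702 (5.9% and 3.83% of all genes), and 12 were higher and 1 lower in UC96US23 (6.23% and 5.95%).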

How the data were processed

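The members and lists were chosen with earlier results of these data known. Per the labels, RNA-seq reads were aligned with STAR 2.5.2 and counted with featureCounts; the methods name the lettuce genome version 8. For Salinas, the authors deposited a signal per gene, a count per 1000000 reads (CPM) in which each library's size carries its own scaling factor, so that a library's values sum to between 815104 and 1273638. For the cold table the authors deposited CPM, summing to 1000000. The scaling method is not given in the sources used here. The design had assumed unscaled CPM, and the log-scale test was kept.

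Of both files, 100% of the values above 0 were whole reads within 0.01 of a read. Genes with at least 0.5 in 2 libraries were tested, as log2(value + 0.5), with limma 3.58.1 (R 4.3.3; lmFit, contrasts.fit, eBayes with trend, all libraries of a table in one fit) and Benjamini-Hochberg adjustment over all genes of a comparison. Fold changes on this scale understate those of low genes. A gene under 0.5 in every library of the reference group cannot be called lower. The cut-offs and the filter on low values follow the study's methods, which used edgeR for calls. Replicates were biological by the methods in Salinas; for the cold table the sources used here do not say, so p-values there may measure technical spread. Chi-square per gene between replicates was 3.63 or more.

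Other settings tried were pseudocounts of 0.1 and 2, unfiltered genes, median-centred libraries, each library scaled to 1000000, the compared groups alone, replicate numbers fitted as a block, quasi-likelihood tests of edgeR 4.0.16 on the recovered reads, and each library left out. Leaving out libraries for the description against controls, and both changes to the 48 h gap between salt and drought, were added after the data were seen. Named members were to be the 12 of highest rank, 3 on either side of rank 100, the 4 largest called rises and falls at 7 d of cold per cultivar, the 3 largest cultivar differences and salt against drought differences at 24 h in each direction, and AP2/ERF genes within the limits. As no annotation pairs the IDs with names, 2 IDs that rose and 2 that fell are printed, and the others are given by rank. Members of ranks 16, 18, 23, 31, 33, 63 and 66 were named after their values were seen. The tests were checked on simulated counts. Lists of annotated stress genes, cell type markers and promoter motifs were not used, for want of an annotation of these IDs. Tables and plots were made with pandas 2.3.3 and matplotlib 3.10.9 in Python 3.11.15.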

Additional observations from a re-analysis of the deposited data

Results flagged for a closer look

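Differences between treatments or times passed a test of the difference itself for many members. Salt exceeded drought for 75 members at 5 h (3.46% of all genes) and for 85 members at 24 h (14.9%), and 0 were lower. The members were chosen for a rise at 48 h of salt, so these shares of all genes are not a like base. At 24 h of salt, 20 members were higher than at 5 h (10% of all genes) and 5 were lower (8.7%), and with each library scaled to 1000000 the counts were 13 and 10.

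A tested interaction between cold and cultivar was called for 4 members. The differences, UC96US23 minus PI284702 on the log2 scale, were 2.61 at 24 h and 2.78 at 7 d for rank 35, -1.83 at 24 h and -1.55 at 7 d for rank 19, -1.60 at 7 d for rank 34 and 1.82 at 7 d for rank 91. Ranks 19 and 34 were at or near 0 in all UC96US23 libraries, where a rise below the floor of 3 reads would not be detectable, so their values rest on PI284702. For these members edgeR gave 0.54 and 0.13 at 7 d (adjusted p = 0.835 and 0.818) and called neither. For rank 35, the call was lost in 9 of 18 alternative settings at 24 h and in 4 of 18 at 7 d. For rank 91, the call was lost in 14 of 18 alternative settings, including without either library of PI284702 at 0 h (1.72 without replicate 1 and 1.91 without replicate 2).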

How the results depend on the processing

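Of the main results and medians, 480 values under other settings stayed close and 71 moved or turned; causes were not tested. With a pseudocount of 0.1, members' medians were 2.12 (salt against drought at 5 h), 2.40 (at 24 h) and 0.77 (PI284702 at 24 h of cold), 3 members were lower at 24 h of salt than at 5 h, 0 were higher at 24 h of drought than at 5 h, and 1 cultivar difference was called at 24 h and 0 at 7 d. With a pseudocount of 2, these medians were 1.296, 1.64 and 0.31, and 0.55 in UC96US23 at 24 h; 0 members were higher at 24 h of drought, 0 lower at 24 h in PI284702, 6 higher and 1 lower at 7 d in PI284702, 14 higher at 4 h in UC96US23, 1 cultivar difference was called at 4 h, and 2 members differed at 0 h. With libraries scaled to 1000000, 13 members were higher and 10 lower at 24 h of salt than at 5 h. With edgeR, the medians were 2.23, 2.49 and 0.80, 1.22 in UC96US23 at 24 h and 0.54 for the cultivar difference at 7 d; 1 member was lower at 7 d in UC96US23, 0 cultivar differences were called at 24 h and 1 at 7 d, and the differences at 7 d turned to 0.54 for rank 19 and 0.13 for rank 34. With the compared groups alone, 0 members were higher at 24 h of drought, 4 at 4 h and 21 at 24 h in PI284702 (0 lower), 2 lower at 7 d in PI284702, 10 higher at 4 h in UC96US23, and 2 cultivar differences were called at 7 d. With median-centred libraries, 9 members were higher at 7 d in PI284702, with a median of -0.034.

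Leaving out each library in turn gave 13 to 29 members higher and 2 to 5 lower at 24 h of salt against 5 h. At 24 h of drought against 5 h it gave 0 to 2 higher, 0 to 2 lower and a median of -0.016 to 0.16, the negative one without replicate 1 of 24 h. In PI284702 it gave 0 to 1 lower at 4 h, 21 to 34 higher and 0 to 3 lower at 24 h with a median of 0.43 to 0.74, and 8 to 14 higher at 7 d with a median of -0.046 to 0.31, where 21, 8 and the negative median came without replicate 2 of 0 h. In UC96US23 the median at 4 h was 0.32 to 0.82. Cultivar differences called were 0 to 1 at 4 h, 1 to 2 at 24 h and 2 to 4 at 7 d, with a median of 0.10 to 0.59 at 7 d. Of the members, 3 to 9 had D of 1 or more at 24 h of drought, and their median D at 48 h of salt was 2.73 to 3.04. The first 100 kept 84 to 98 members without a control, drought or salt library, 75 and 69 with pseudocounts of 0.1 and 2, and 87 with libraries scaled to 1000000.

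Replicate numbers are shared between groups, but same-numbered libraries deviated together with correlations of -0.27 to 0.14 only, so the numbers were not taken to pair them. With the replicate block, 75 members were higher in salt than in drought at 5 h and 86 at 24 h, and 34 and 39 were higher at 24 h of cold in PI284702 and UC96US23. Members at or under 3 reads in a group limit what a fold can show.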
